A study of Homo sapiens with 4 samples.

Results

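Polyamine genes are described here in LN229 cells, an established human glioblastoma line, after silencing of RAB38. The members are 10 genes, chosen by name as the enzymes and regulators of polyamine synthesis, antizyme control and breakdown, out of 22458 named genes on the arrays. The choice was made with the values known, since ODC1 had been seen lower in these arrays, so the siRAB38 against NT values of all members are a description and carry no test. The groups were siRAB38, transfected with a pool of siRNAs against RAB38 (n = 2 arrays), and NT, transfected with a nontargeting pool (n = 2 arrays). Both were transfected in medium free of serum and antibiotics, received serum to 1.5% the day after, and were taken for RNA at 48 h, and the labels give no other treatment. The study asked if RAB38, a small GTPase, controls growth and survival of glioblastoma cells, and these arrays were 1 of its assays. A single line and a single siRNA pool per group limit the model. The sources used here do not say if replicates were cultured separately, so p-values measure array-to-array spread only, and that spread may be technical.

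Putrescine, spermidine and spermine are small polycations that bind RNA and are needed by growing cells. ODC1, ornithine decarboxylase, makes putrescine from ornithine and is rate-limiting, and AMD1, S-adenosylmethionine decarboxylase, makes the aminopropyl donor that SRM, spermidine synthase, and SMS, spermine synthase, attach. The antizymes OAZ1 and OAZ2 bind ODC1 protein and deliver it to the proteasome, and AZIN1, an ODC1 relative without enzyme activity, takes the antizymes away from it. SAT1 acetylates spermidine and spermine for export or oxidation by PAOX, while SMOX oxidises spermine directly. Much of this control acts on translation and protein turnover, which arrays of mRNA do not measure. ODC1 is a classic target gene of c-Myc, which binds the E-box CACGTG with its partner MAX.

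Promoter windows of the synthesis genes ODC1, AMD1 and SRM are shown. ODC1 and AMD1 lay apart between the groups in opposite directions, while the arrays of SRM overlapped. The window of SMS, the other synthesis gene, holds no CACGTG and is not shown. The sequences are those of RefSeq (build GRCh38.p14), 250 bases before to 50 after an annotated start, read 5′ to 3′ on the strand of the gene, with each CACGTG in capitals. For ODC1, of its annotated starts, the window with E-boxes is shown, chosen after its letters were searched.
ODC1, chr2:10447963-10448262, minus strand: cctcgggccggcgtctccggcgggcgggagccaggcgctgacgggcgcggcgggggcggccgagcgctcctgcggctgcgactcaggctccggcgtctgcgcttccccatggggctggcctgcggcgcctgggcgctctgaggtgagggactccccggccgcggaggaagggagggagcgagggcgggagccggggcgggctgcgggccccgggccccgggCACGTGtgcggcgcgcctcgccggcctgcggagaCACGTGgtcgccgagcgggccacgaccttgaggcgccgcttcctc
AMD1, chr6:110874535-110874834, plus strand: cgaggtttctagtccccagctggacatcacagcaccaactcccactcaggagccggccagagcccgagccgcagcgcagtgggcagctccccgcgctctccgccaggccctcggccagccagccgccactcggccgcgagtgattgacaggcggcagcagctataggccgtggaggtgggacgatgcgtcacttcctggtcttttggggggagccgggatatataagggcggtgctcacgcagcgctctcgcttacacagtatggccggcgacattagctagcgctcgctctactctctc
SRM, chr1:11059969-11060268, minus strand: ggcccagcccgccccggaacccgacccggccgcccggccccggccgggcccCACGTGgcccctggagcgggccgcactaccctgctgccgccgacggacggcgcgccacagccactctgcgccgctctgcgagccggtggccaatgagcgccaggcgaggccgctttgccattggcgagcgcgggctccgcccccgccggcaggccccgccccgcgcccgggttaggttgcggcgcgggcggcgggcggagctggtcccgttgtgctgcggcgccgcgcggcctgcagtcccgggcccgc

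In the ODC1 window shown, CACGTG lies at -29 and again at 6 from the annotated start, which is 286 and 320 bases downstream of the other annotated ODC1 start. The SRM window holds 1 CACGTG, at -199, and the 3 AMD1 windows hold none. Windows of 7 of the 10 members were used. They number 10 in all, since ODC1 has 2 and AMD1 has 3, of which 2 start 1 base apart. PAOX and SMOX had no window in the set of RefSeq promoter windows. Chromosome 8, which holds AZIN1, was left out for the members, a step not applied to the share of all windows. CACGTG was in 2 of these 10 windows, 1 of ODC1 and that of SRM, against 7.26% of all 35116 windows. The word is the same on both strands. The variant CACGCG, or CGCGTG on the other strand, was in 1 of the 10 windows, the other one of ODC1, where both forms overlap each other, against 11.4% of all windows. TATAAA, or TTTATA on the other strand, was in 1, that of OAZ1, against 11.5% of all windows. The GC box GGGCGG, or CCGCCC, was in 9 of the 10, all but that of SAT1, against 45.0% of all windows. CACGTG does not overlap the other words in the windows shown. These are matches of letters only, as no binding was measured.

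The values are log2 RMA values, in which background correction, quantile normalization and probe summary were done together by the authors. Every pair of arrays correlated at 0.993 to 0.994. RAB38 had 2.52 and 3.43 in siRAB38, against 4.69 and 4.78 in NT, a log2 fold change of -1.76 with a standard error of 0.30 (limma, adjusted p = 0.72). Both siRAB38 arrays showed the silenced gene lower, replicate 1 more than replicate 2. RAB32, its closest relative, had a log2 fold change of -0.11 with overlapping arrays. Of 10 markers of mesenchymal and glial tumor cells, none was among the dimmest 30% of genes. GFAP, the astrocyte filament gene, lay between 2.81 and 3.35 over the arrays, OLIG2 between 4.72 and 5.19, and VIM, NES, CD44, S100B, SOX2, EGFR, TNC and FABP7 between 6.85 and 11.36. Of 11 markers of immune, endothelial, epithelial, neuronal and oligodendroglial cells, 7 were among the dimmest 30% of genes. The mean of 19 interferon-stimulated genes was 6.23 and 7.50 in siRAB38 against 7.74 and 6.86 in NT, so siRAB38 replicate 1 stood lowest and the groups overlapped in all 19 genes. The part of this array difference in the values below was not tested. In limma over the 22458 named genes, siRAB38 against NT, 0 genes (0%) passed an adjusted p of 0.05, and 1539 (6.85%) had an unadjusted p under 0.05. The methods' t-test also called 0 genes after adjustment and 1473 before it. An exact permutation test of 2 arrays against 2 cannot give a two-sided p below 0.333.

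None of the 10 members was among genes called, as no gene was. No NT array was as low as either siRAB38 array in 4 members, ODC1, OAZ1, OAZ2 and AZIN1, as in 17.2% of all named genes. No NT array was as high as either siRAB38 array in 3 members, AMD1, SAT1 and PAOX, as in 18.8% of all named genes. The arrays overlapped in SRM, SMS and SMOX. The log2 differences of the members ran from -0.70 to 0.31 with a median of -0.12, beside a median of 0.005 over all named genes. Nothing is read from these counts, since the rule used this contrast.

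**Figure D1:**
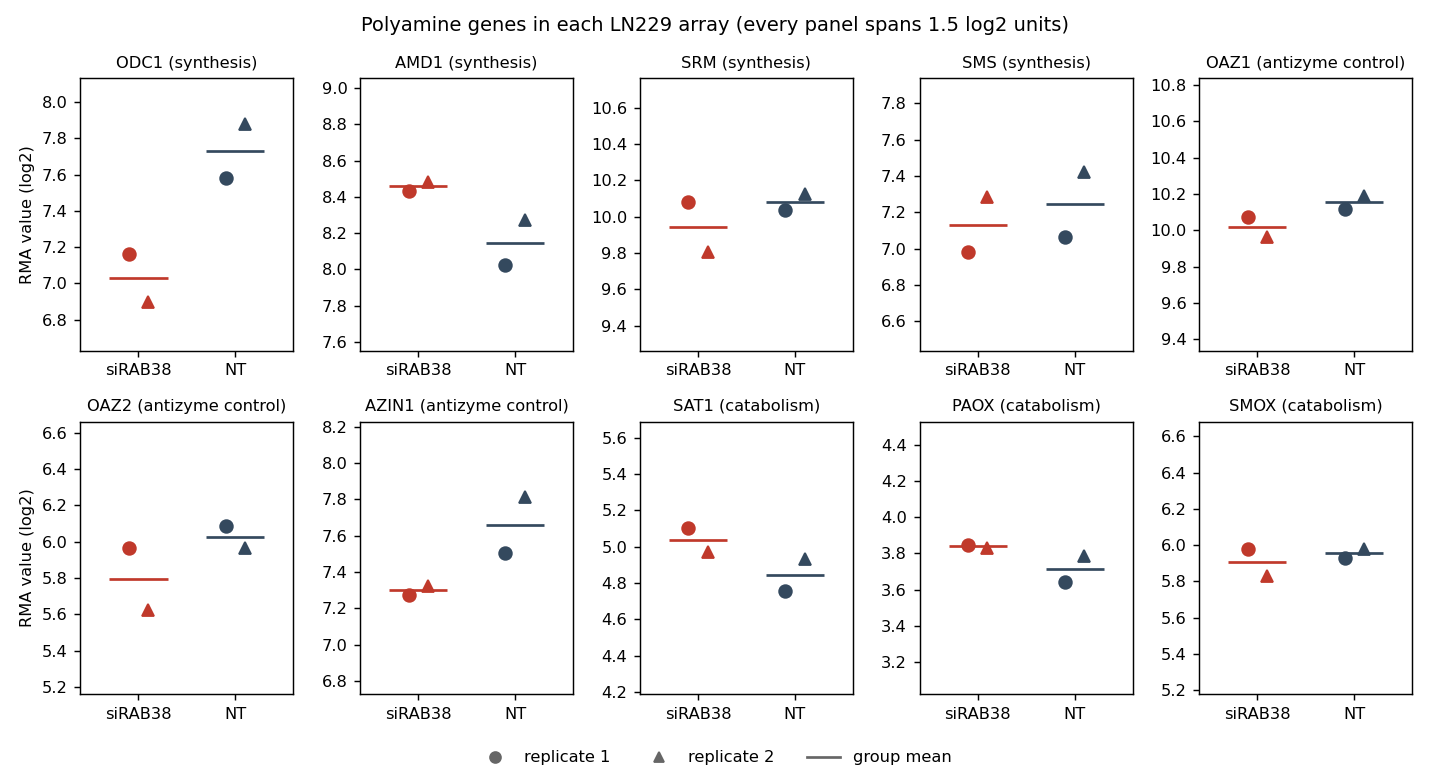
RMA values (log2) of each polyamine gene by array, siRAB38 left and NT right, with circles for replicate 1, triangles for replicate 2 and lines for group means; every panel spans the same log2 range. The siRAB38 arrays of ODC1 sit at 7.16 and 6.90, below the NT arrays at 7.58 and 7.88, and those of AMD1 sit above the NT arrays.

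ODC1 had log2 values of 7.16 and 6.90 in siRAB38, against 7.58 and 7.88 in NT. The siRAB38 arrays were both lower, and the nearest arrays of the groups lay 0.42 apart, more than the arrays of either group did. The means were 7.03 ± 0.19 in siRAB38 and 7.73 ± 0.21 in NT (SD, n = 2 each), a log2 fold change of -0.70, with a standard error of 0.16 in limma, which is 61.6% of the NT level. Less ODC1 mRNA per cell and fewer cells that carry it cannot be told apart in bulk RNA. A difference this low or lower was held by 72 of 22458 genes (0.321%), ODC1 included. The difference was 2.33 times the larger of its within-group gaps, and it ran from -0.85 without NT replicate 1 to -0.55 without NT replicate 2. Within siRAB38, ODC1 was lower in replicate 2, while RAB38 was lower in replicate 1, at 2.52 against 3.43. A relation of ODC1 to the depth of silencing was not tested.

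AMD1, which supplies the aminopropyl groups, ran the other way. Its values were 8.43 and 8.48 in siRAB38, against 8.02 and 8.27 in NT, without overlap. The siRAB38 arrays lay 0.05 apart and the NT arrays 0.25 apart, with NT replicate 2 nearer to the siRAB38 arrays. The means were 8.46 ± 0.04 in siRAB38 and 8.15 ± 0.17 in NT (SD, n = 2 each), a log2 fold change of 0.31 (standard error 0.13), or 124% of the NT level. A difference this high or higher was held by 5.53% of genes. It was 0.19 without NT replicate 1 and 0.44 without NT replicate 2.

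The aminopropyl transferases did not separate the groups. SRM had 10.08 and 9.80 in siRAB38, against 10.04 and 10.13 in NT. One siRAB38 array lay between the NT arrays and the other below them, and the log2 fold change of -0.14 (standard error 0.14) was -0.0001 without siRAB38 replicate 2 and -0.28 without siRAB38 replicate 1. SMS had 6.98 and 7.28 in siRAB38, against 7.06 and 7.42 in NT. Its arrays interleaved, and the log2 fold change of -0.11 (standard error 0.18) changed sign to 0.07 without NT replicate 2 and to 0.04 without siRAB38 replicate 1, and was -0.29 without NT replicate 1 and -0.26 without siRAB38 replicate 2.

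The antizyme genes and the antizyme inhibitor gene had lower means in siRAB38, the median of the 3 log2 fold changes being -0.23. OAZ1 had 10.07 and 9.96 in siRAB38, against 10.12 and 10.19 in NT. The groups did not overlap, but the nearest arrays lay 0.04 apart, and the log2 fold change was -0.14 (standard error 0.11), or 90.9% of the NT level, and -0.08 without siRAB38 replicate 2. OAZ2, which encodes another antizyme, had 5.97 and 5.63 in siRAB38, against 6.09 and 5.97 in NT. Its non-overlap rests on 0.0002 between siRAB38 replicate 1 and NT replicate 2 and was lost after another quantile normalization. Its log2 fold change was -0.23 (standard error 0.15), and it was -0.06 without siRAB38 replicate 2 and -0.40 without siRAB38 replicate 1.

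AZIN1, whose protein shields ODC1 from antizyme, had 7.27 and 7.32 in siRAB38, against 7.50 and 7.81 in NT. The siRAB38 arrays were close to each other and both lower, and NT replicate 2 was the highest of all. The means were 7.30 ± 0.04 in siRAB38 and 7.66 ± 0.22 in NT (SD, n = 2 each), a log2 fold change of -0.36 (standard error 0.14), or 77.9% of the NT level. A difference this low or lower was held by 3.33% of genes. It was -0.20 without NT replicate 2 and -0.52 without NT replicate 1.

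Of the breakdown genes, SAT1 had 5.10 and 4.97 in siRAB38, against 4.75 and 4.93 in NT. Both siRAB38 arrays were higher, with the nearest arrays 0.04 apart. The log2 fold change was 0.19 (standard error 0.12), or 114% of the NT level, and it was 0.10 without NT replicate 1 and 0.13 without siRAB38 replicate 1. PAOX, the peroxisomal oxidase of acetylated polyamines, had 3.85 and 3.83 in siRAB38, against 3.64 and 3.79 in NT. Its siRAB38 arrays were nearly equal and lay above the NT arrays by 0.04 or more, and the log2 fold change of 0.12 (standard error 0.11) was 0.05 without NT replicate 1 and 0.20 without NT replicate 2. SMOX had 5.98 and 5.83 in siRAB38, against 5.93 and 5.98 in NT, with overlapping arrays. Its log2 fold change was -0.05 (standard error 0.11) and turned to 0.03 without siRAB38 replicate 2, and was -0.12 without siRAB38 replicate 1. The median over the 3 breakdown genes was 0.12, the value of PAOX. That over the 4 synthesis genes was -0.12, between SRM and SMS, and it hides the opposite values of ODC1 and AMD1. The 25th and 75th percentiles of all named genes were -0.106 and 0.12. Nothing is read from these medians, since the rule used this contrast.

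**Figure D2:**
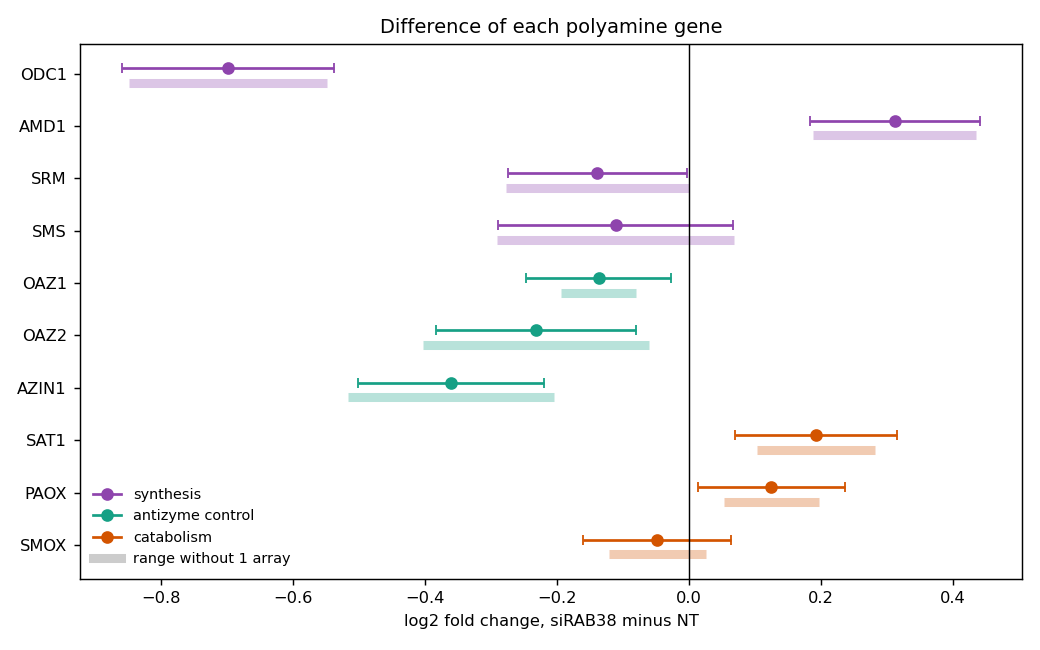
Log2 fold change of each polyamine gene, siRAB38 minus NT, coloured by role, with bars for the standard error from limma and pale bands for the range when 1 array is left out. ODC1 has the lowest value, -0.70, AMD1 the highest, 0.31, and the bands of SMS and SMOX cross 0.

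Among the members, the replicates differed in a shared way. NT replicate 2 was above NT replicate 1 in 9 of the 10 members, all but OAZ2, while 50.7% of all named genes had that order. The gaps between the NT arrays were 0.36 in SMS, 0.31 in AZIN1 and 0.30 in ODC1, and 0.05 in SMOX. In siRAB38, replicate 1 was above replicate 2 in 7 of the 10 members, with gaps of up to 0.34 in OAZ2, and 50.5% of all named genes had that order. The members are genes of the same arrays and not replicates, so these counts describe the members in these arrays and carry no test. The median of the members was -0.17 at its lowest and, without siRAB38 replicate 2, -0.03.

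Differences between pairs of members within an array do not depend on a common shift of its log2 values, but quantile normalization can alter them. Their size reflects probes as well as mRNA, so only their change between groups is described. ODC1 minus AMD1 was -1.27 and -1.58 in siRAB38, against -0.44 and -0.39 in NT. These are log2 differences, and the change of -1.01 between the group means was the widest of ODC1 against any other member. ODC1 minus SAT1 was 2.06 and 1.93 in siRAB38, against 2.82 and 2.95 in NT. ODC1 minus OAZ1 was -2.91 and -3.06 in siRAB38, against -2.54 and -2.31 in NT. In both pairs the siRAB38 arrays were lower, with changes in the mean of -0.89 for SAT1 and -0.56 for OAZ1. Against SRM, SMS, OAZ2, PAOX and SMOX the changes ran from -0.82 to -0.47, again without overlap. ODC1 minus AZIN1 was -0.11 and -0.42 in siRAB38, against 0.08 and 0.06 in NT. AZIN1 was the member from which ODC1 separated least, with a change of -0.34, and the siRAB38 arrays differed from each other by nearly as much. AZIN1 minus OAZ1 was -2.80 and -2.64 in siRAB38, against -2.62 and -2.38 in NT, a narrow separation. SAT1 minus SMOX, the acetylating against the oxidising route, was -0.88 and -0.86 in siRAB38, against -1.18 and -1.05 in NT. SMS minus SRM and OAZ2 minus OAZ1 overlapped between the groups. ODC1 was below its NT range relative to each of the other members, which follows from its own low values and is no separate result.

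**Figure D3:**
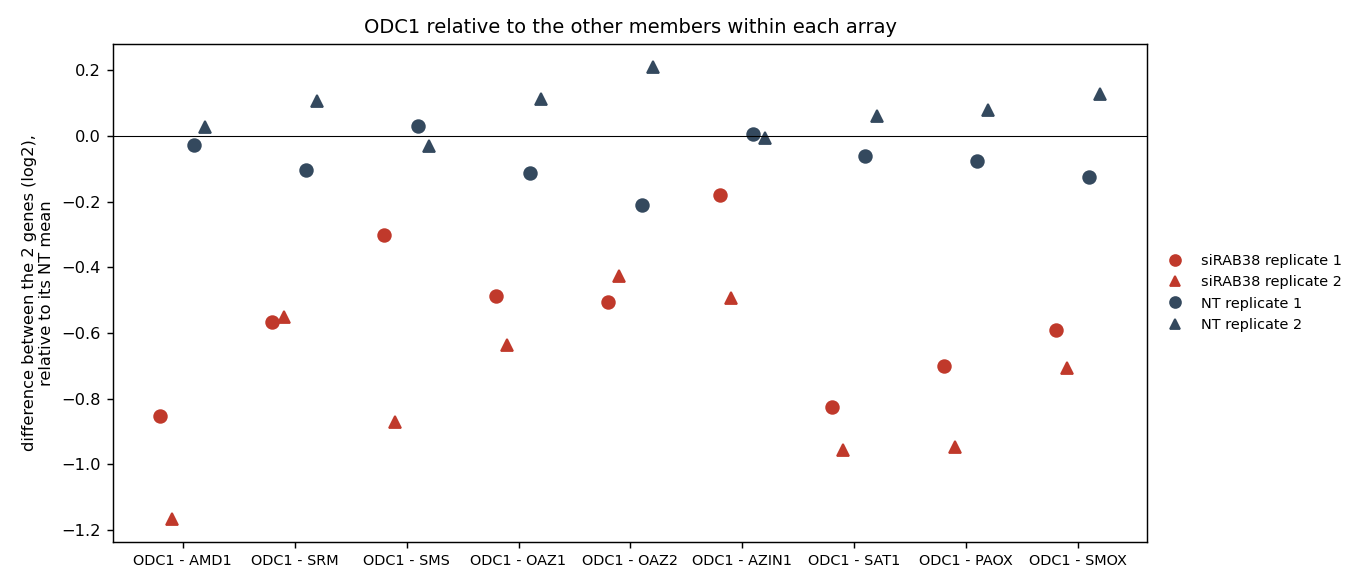
Log2 difference between ODC1 and each other member within an array, set to the mean of the NT arrays of that pair, for siRAB38 (red, left) and NT (dark, right), with circles for replicate 1 and triangles for replicate 2. All siRAB38 points lie below both NT points of their pair, most in the pair with AMD1, where the means differ by -1.01.

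c-Myc and its partner are given as context for ODC1. MYC had 5.49 and 4.93 in siRAB38, against 5.64 and 5.90 in NT, a log2 fold change of -0.57 with a standard error of 0.22 (limma, adjusted p = 0.72). It was -0.29 without siRAB38 replicate 2 and -0.84 without siRAB38 replicate 1. MAX had 6.16 and 6.10 in siRAB38, against 6.06 and 6.05 in NT (limma, adjusted p = 0.91). siRAB38 replicate 2 was the lowest array and NT replicate 2 the highest in MYC, in ODC1, SRM and OAZ1 among the members, and in 8.67% of all named genes. Only this order, that of MYC, was counted. It puts a siRAB38 array lowest and an NT array highest, so the count draws on the contrast that the rule used, and nothing is read from it. A link of MYC with these genes was not tested. The genes whose arrays were most like those of ODC1, by root mean square distance after each gene was set to its own mean over the 4 arrays, were MYLK, C5orf58, WBP11, BET1 and MNS1. MYLK encodes myosin light chain kinase, WBP11 a splicing factor and BET1 a SNARE of ER to Golgi transport. Their distances were 0.05 to 0.07 on the log2 scale, against a median of 0.40 over all named genes. MYLK had 3.82 and 3.60 in siRAB38, against 4.31 and 4.49 in NT. WBP11 had 7.67 and 7.42 in siRAB38, against 8.11 and 8.28 in NT. BET1 and MNS1 had log2 fold changes of -0.69 and -0.58. These genes were picked for their likeness to ODC1, so their differences are a description. With 4 arrays, 17 genes lay within 0.1 of ODC1. C5orf58 is among the dimmest 30% of genes.

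The other genes of the pathway were taken from 5 lists with 49 entries, of which 47 were analysed. By neither limma nor the methods' t-test did a gene of these lists pass an adjusted p of 0.05, and 4 of the 47 had an unadjusted p under 0.05 in limma, 2 lower and 2 higher, where 6.85% of all named genes did. Of the 47 genes, 23 lay below 0, 23 above, and SATL1 had the same value in all 4 arrays. The siRAB38 arrays lay below the NT arrays in 8 of the 47, beside 17.2% of all named genes, and above in 6, beside 18.8%, and overlapped in 33. Of the 24 genes of these lists named below, 19 moved by over 1.5 times or changed sign when 1 array was left out, all but MTRR, SLC12A8, SLC18B1, ATP13A2 and GPC1. The median log2 fold change was 0, close to that of all named genes.

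Polyamine transport held the most distant values of these lists. SLC12A8, a member of the cation-chloride cotransporter family that has been linked to polyamine uptake, had 3.21 and 2.92 in siRAB38, against 3.69 and 4.09 in NT. Both siRAB38 arrays were lower, and the log2 fold change was -0.83, standard error 0.19 (limma, adjusted p = 0.72), or 56.4% of the NT level. SLC18B1, the vesicular polyamine transporter, had 5.75 and 6.01 in siRAB38, against 5.42 and 5.38 in NT. ATP13A2, the lysosomal polyamine exporter, had 6.51 and 6.28 in siRAB38, against 5.87 and 5.98 in NT. Both were higher in both siRAB38 arrays, with log2 fold changes of 0.48 for SLC18B1 and 0.47 for ATP13A2, standard errors of 0.13 and, in limma, adjusted p = 0.72 for each. GPC1, a heparan sulfate proteoglycan that can carry polyamines inward, had a log2 fold change of 0.27. ATP13A3, a polyamine importer related to ATP13A2, had -0.29 with overlapping arrays, and -0.14 without NT replicate 2. Of the 11 transport genes analysed, 5 lay below 0 and 6 above, 4 were among the dimmest 30% of genes, and none passed. Their median log2 fold change was 0.001.

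In the methionine cycle and salvage of methylthioadenosine, the by-product of SRM and SMS, 6 of 13 genes lay below 0 and 7 above, and none passed. Their log2 fold changes had a median of 0.04. MTRR, which keeps methionine synthase active, had 8.21 and 8.14 in siRAB38, against 8.45 and 8.39 in NT, a log2 fold change of -0.24 with a standard error of 0.11 (limma, adjusted p = 0.72). MAT2B, the regulatory subunit of S-adenosylmethionine synthetase, had a log2 fold change of -0.31, its catalytic partner MAT2A -0.13, and the salvage enzyme APIP -0.24, each without overlap. Without 1 array these came to -0.18 in MAT2B (NT replicate 2), -0.066 in MAT2A (siRAB38 replicate 2) and -0.15 in APIP (NT replicate 1). MAT1A, the liver form of the synthetase, had 0.27, also without overlap, and 0.17 without siRAB38 replicate 2. MTAP, which opens the salvage pathway, had 5.76 and 5.85 in siRAB38, against 5.85 and 5.61 in NT, with overlapping arrays and a log2 fold change of 0.07.

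Of 13 genes of arginine and ornithine supply, 7 lay below 0 and 6 above, from -0.18 to 0.16 with a median of -0.002, and none passed. SLC7A1, the main cationic amino acid transporter, had a log2 fold change of -0.16 and ARG2, mitochondrial arginase, 0.16, both without overlap, while AGMAT had -0.18 and ASS1 0.15 with overlap. SLC7A1 came to -0.08 without siRAB38 replicate 2 and ARG2 to 0.08 without NT replicate 1. The mean of AGMAT over the arrays, 2.29, was close to the limit of the dimmest 30%, 2.16. Of the 5 genes of the hypusine pathway, in which spermidine is used to modify EIF5A, 4 lay below 0 and 1 above, and none passed. The median log2 fold change was -0.07. EIF5A had a log2 fold change of 0.27, or 0.15 without siRAB38 replicate 2, and its close copy EIF5AL1 -0.44, but probes may not tell such copies apart and EIF5AL1 is among the dimmest 30%. The modifying enzymes DHPS and DOHH had -0.09 and -0.02, and EIF5A2 had -0.07, all with overlap. Among other antizyme and acetylase family genes none passed and all 5 overlapped, with a median of 0.05. OAZ3, the antizyme of the testis, had a log2 fold change of -0.15, AZIN2, a further antizyme inhibitor, 0.05, and AOC1, a diamine oxidase, 0.15. AOC1 is among the dimmest 30% of genes, and AZIN2, with a mean of 2.57 over the arrays, was not far above their limit. SAT2 had 6.75 and 6.40 in siRAB38, against 5.94 and 6.63 in NT, so NT replicate 1 stood alone.

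**Figure D4:**
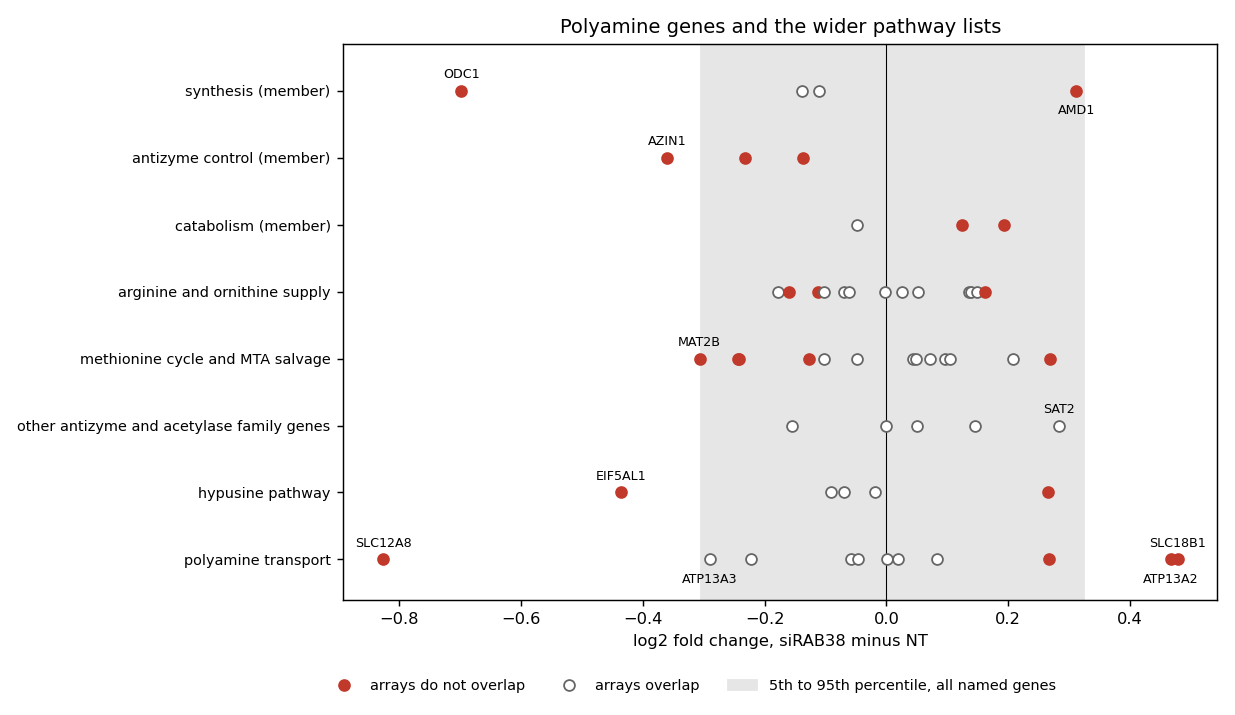
Log2 fold change, siRAB38 minus NT, of the polyamine members (upper 3 rows) and of 5 lists of related genes, with filled points where the arrays of the groups do not overlap and a grey band from the 5th to the 95th percentile of all named genes, -0.305 to 0.324. ODC1, AZIN1, MAT2B at the edge, SLC12A8, EIF5AL1, SLC18B1 and ATP13A2 lie outside the band.

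Pseudogenes named after members stand in RefSeq for ODC1, AMD1, SRM, SMS and OAZ1, with 4 for AMD1 and 3 for SRM. Probes that such copies share could mix their signal with that of the gene, and this was not tested. No member was among the dimmest 30% of genes.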

How the data were processed

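Total RNA was labelled with biotin (Affymetrix WT Plus kit) and hybridised to 1 array per sample. The authors deposited a table of log2 values made by RMA, and affy 1.60.0 with R 3.5.1 is listed in the submitters' processing notes. Neither the probe set definition nor its build is given in the sources used here. RMA hides shifts of all genes and narrows differences of dim ones. Of 23786 rows, 22458 had 1 gene symbol in the platform annotation, none had several and 1328 had none, and no gene had more than 1 row. All 22458 symbols equalled the RefSeq symbol of their gene identifier.

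siRAB38 and NT were assigned by the titles and compared with limma 3.58.1 in R 4.3.3 (lmFit, eBayes), with Benjamini-Hochberg adjustment over the 22458 genes at 0.05. The fit was run on simulated data with planted differences larger than that of any member. It therefore says nothing on detecting differences of the members' size. The paper names ANOVA and a t-test but no gene model. Depth does not apply to arrays, and their number limits the precision. The members and lists were chosen with earlier results of these data known. Named were all members, RAB38, RAB32, MYC and MAX, up to 4 genes with the smallest p of each list, MTAP, MAT2A, EIF5A, DHPS, DOHH, ATP13A3 and the 5 genes nearest to ODC1. Alternatives were quantile normalization or median centring of the table, a filter on the dimmest 30%, use of unnamed rows, trended or robust eBayes, weighted arrays, the replicate block, the t-test and omission of each array in turn.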

Additional observations from a re-analysis of the deposited data

How the results depend on the processing

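With 2 arrays a group, single arrays set most of the uncertainty. No gene, member or related gene passed the adjusted threshold under any alternative run. The median log2 fold change of the members ran from -0.17 to -0.0306 when 1 array was left out, being -0.0306 without siRAB38 replicate 2. Genes at an unadjusted p under 0.05 numbered 920 without NT replicate 1, 997 without NT replicate 2, 1624 without siRAB38 replicate 1 and 1309 without siRAB38 replicate 2, against 1539 with all arrays. Without 1 array, log2 fold changes of related genes with overlapping arrays changed sign, from -0.0605 to 0.629 in SAT2, -0.32 to 0.0094 in OAZ3, -0.042 to 0.14 in AZIN2, -0.25 to 0.0686 in DHPS, -0.22 to 0.0847 in EIF5A2, -0.0437 to 0.19 in MTAP and -0.16 to 0.13 in DOHH. The cause was not tested. The replicate numbers do not pair the samples in the labels, and deviations of same-numbered arrays correlated at -0.055 across genes. With the replicate number as a block, 0 genes passed and 1249 had an unadjusted p under 0.05.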
